A study of Caenorhabditis elegans with 20 samples.

Results

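Whole L3 larvae of Caenorhabditis elegans that lack zygotic htz-1, the gene for the histone variant H2A.Z, were compared with wild type by RNA-seq of polyadenylated RNA. The comparison covers 9679 of the 15568 genes of the deposited table, those with a mean of at least 1 RPKM (a read count divided by the length of the gene model and by the reads of the library) over the 6 RNA-seq libraries. The gene just inside this limit was ceh-17, at a mean of 1.00 RPKM, and the gene just outside it was sre-6, at 0.999 RPKM. The groups were the wild-type strain N2, homozygous htz-1(ok3099) mutants and lin-35(n745) mutants, each with 2 libraries, and they form the RNA-seq part of a series of 20 samples. The lin-35 libraries, from larvae that lack the pocket protein of the DREAM repressor complex, served here to estimate the spread and to show where a gene named for htz-1 differs between the mutants.

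All larvae were cultured at 20 °C and were populations of males and hermaphrodites. The labels give an age of 24 to 42 h after hatching for all of them. The htz-1 homozygotes were the progeny of mothers heterozygous for the balancer nT1[qIs51], so they carried maternal product, and they were picked with a worm sorter by their lack of the GFP that the balancer carries. A sucrose gradient was used to clean the larvae of N2 and of lin-35, and the labels do not give this step for htz-1. Sorting, cleaning and genotype therefore cannot be told apart in htz-1 against N2. Whether a genotype's 2 libraries stem from separate cultures is not stated, and the p-values then cover only the spread from library to library.

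H2A.Z takes the place of histone H2A in a minority of nucleosomes, above all in those that flank the start sites of active genes, where a remodelling complex of the SWR1 type puts it in. In C. elegans the protein is required for normal development and fertility, and in the embryo it sits at the promoters of foregut genes bound by PHA-4. Larvae without the zygotic gene can reach adulthood on what the mother supplied, which makes this mutant a partial loss of H2A.Z.

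The libraries rested on 13604791 to 18301926 reads, of which 73.9% to 77.2% lay in the genes of the table. Between the 2 libraries of a genotype the SD of a gene's log2 difference was 0.262 in N2, 0.348 in lin-35 and 0.326 in htz-1. Genes that oscillate with the larval moults had been left out by the authors. A gene was called higher or lower at an adjusted p under 0.05 in limma on log2(RPKM + 0.5), adjusted over all 9679 genes. In htz-1 against N2, 1474 genes (15.2%) were higher and 1594 (16.5%) were lower. When each of the 6 libraries was left out in turn, the lowest counts were 577 higher and 577 lower, both without N2 replicate 1, and 492 of the rises (5.08% of all genes) and 516 of the falls (5.33%) held under every omission. Leaving out N2 replicate 2 gave 714 higher and 749 lower, and leaving out htz-1 replicate 2 gave 783 and 877. In the gene lists described next, parentheses give the share called, the lowest count with a library left out, and how many calls held under every omission. Most genes named from the lists were chosen because their call held under every omission. Separate N2 and htz-1 values among them therefore follow largely from the choice.

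In the libraries labelled htz-1 and N2, the htz-1 mRNA was at 78.5 and 81.3 RPKM in N2 against 65.6 and 27.8 in htz-1, with 138 and 155 RPKM in lin-35. Both htz-1 libraries were below both N2 libraries, but they differed from each other and the difference from N2 was not called (log2 fold change -0.90 ± 0.33 SE, adjusted p = 0.0762). Without htz-1 replicate 1, the higher of the mutant libraries, the gene was called lower. The deleted part of the gene was not examined, so the level of the whole transcript is a limited check of the allele.

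The largest rises and falls were ranked among genes whose call held under every omission and whose N2 and htz-1 values did not overlap. The rule also required a mean of at least 1 RPKM in both genotypes, and it left out cell cycle genes and genes bound by DREAM. It therefore passed over dct-8, at a mean of 0.533 RPKM in N2 and 59.4 in htz-1 (log2 fold change 5.88 ± 0.23 SE). Most of the rises named here were in genes expressed at a low level in wild type. pud-3 and pud-4, which lie side by side, belong to a small family of related genes whose copies may share reads. pud-3 was at 2.15 and 5.06 RPKM in N2 against 215 and 85.3 in htz-1. pud-4 was at 1.51 and 5.73 RPKM in N2 against 176 and 95.3 in htz-1. Their fitted rises were 5.15 ± 0.47 SE and 5.20 ± 0.54 SE on the log2 scale, with the higher value in htz-1 replicate 1 for both. In lin-35 they were below N2, at 0.658 and 0.741 RPKM for pud-3 and at 0.370 and 0.8503 RPKM for pud-4. The acid phosphatase gene pho-9 was at 1.79 and 2.39 RPKM in N2 against 44.7 and 58.8 in htz-1 (log2 fold change 4.33 ± 0.32 SE, adjusted p = 0.000472). A cytochrome P450 gene, cyp-37B1, rose from 1.05 and 1.91 to 35.2 and 31.5 RPKM (17.5-fold apart on the RPKM + 0.5 scale, adjusted p = 0.00026), and lay between them in lin-35, at 11.83 and 14.7 RPKM. The linker histone gene hil-3, which encodes a histone H1 variant, rose from 36.8 and 32.3 to 197 and 284 RPKM (log2 fold change 2.75 ± 0.18 SE, adjusted p = 0.000332), the highest mean level of the 12 in the mutant. The lipase gene lipl-2 was at 6.41 and 9.02 RPKM in N2 against 78.7 and 45.5 in htz-1, with 46.4 and 36.9 RPKM in lin-35. The other 6 of the 12 largest rises, F56D6.8, W02D7.11, W03F9.4, ZC395.5, C07A9.9 and ZC443.3, had log2 fold changes from 2.87 to 4.64. Of them, ZC395.5 was the most abundant in the mutant, at 139.7 and 147 RPKM against 8.36 and 15.5 RPKM in N2.

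The largest falls, ranked by the same rule, took genes from between 15.5 and 168 RPKM in the N2 libraries to between 1.04 and 16.3 RPKM in the htz-1 libraries. The rule sets the lower end of the mutant values. It left out nspb-4, at a mean of 16.9 RPKM in N2 and 0.49 in htz-1 (log2 fold change -4.19 ± 0.24 SE). The mRNA for the exon junction helicase eif-4A3 was at 36.8 and 39.9 RPKM in N2 against 3.25 and 2.58 in htz-1 (log2 fold change -3.53 ± 0.19 SE, adjusted p = 0.000244), and in lin-35 it was at 47.4 and 31.5 RPKM. aps-3, which encodes the small subunit of the AP-3 adaptor that sorts cargo to lysosome-related organelles, fell from 24.5 and 24.3 to 2.07 and 2.19 RPKM (log2 fold change -3.26 ± 0.11 SE, adjusted p = 6.99e-05). rhy-1, a regulator that holds the hypoxia factor HIF-1 in check, fell from 54.1 and 60.9 to 4.94 and 5.04 RPKM (log2 fold change -3.41 ± 0.12 SE, adjusted p = 6.99e-05). For these genes the 2 libraries of N2 and those of htz-1 lay close together, while separate N2 and htz-1 ranges were required by the rule. The nuclear hormone receptor gene nhr-17 was at 68.6 and 43.02 RPKM in N2 against 6.69 and 5.92 in htz-1, and again it was not low in lin-35, at 121 and 73 RPKM. By contrast, the secreted peptide genes fipr-6 and nspb-6 were low in both mutants: fipr-6 was at 146 and 168 RPKM in N2 against 12.4 and 7.62 in htz-1. Its lin-35 values were 19.9 and 26.1 RPKM. nspb-6 was at 41.7 and 77.0 RPKM in N2 against 3.31 and 2.83 in htz-1. Its lin-35 values were 4.29 and 11.2 RPKM. F58G6.3 was also low in both mutants, at 5.35 and 8.41 RPKM in htz-1 and 6.24 and 6.57 in lin-35 against 68.1 and 42.2 in N2. The remaining 5 of the 12 largest falls, W02H5.1, C50F2.4, F18E3.13, Y105E8A.1 and R107.5, had log2 fold changes from -3.45 to -2.90, and each differed from lin-35 with an adjusted p of at most 0.00359.

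**Figure D1:**
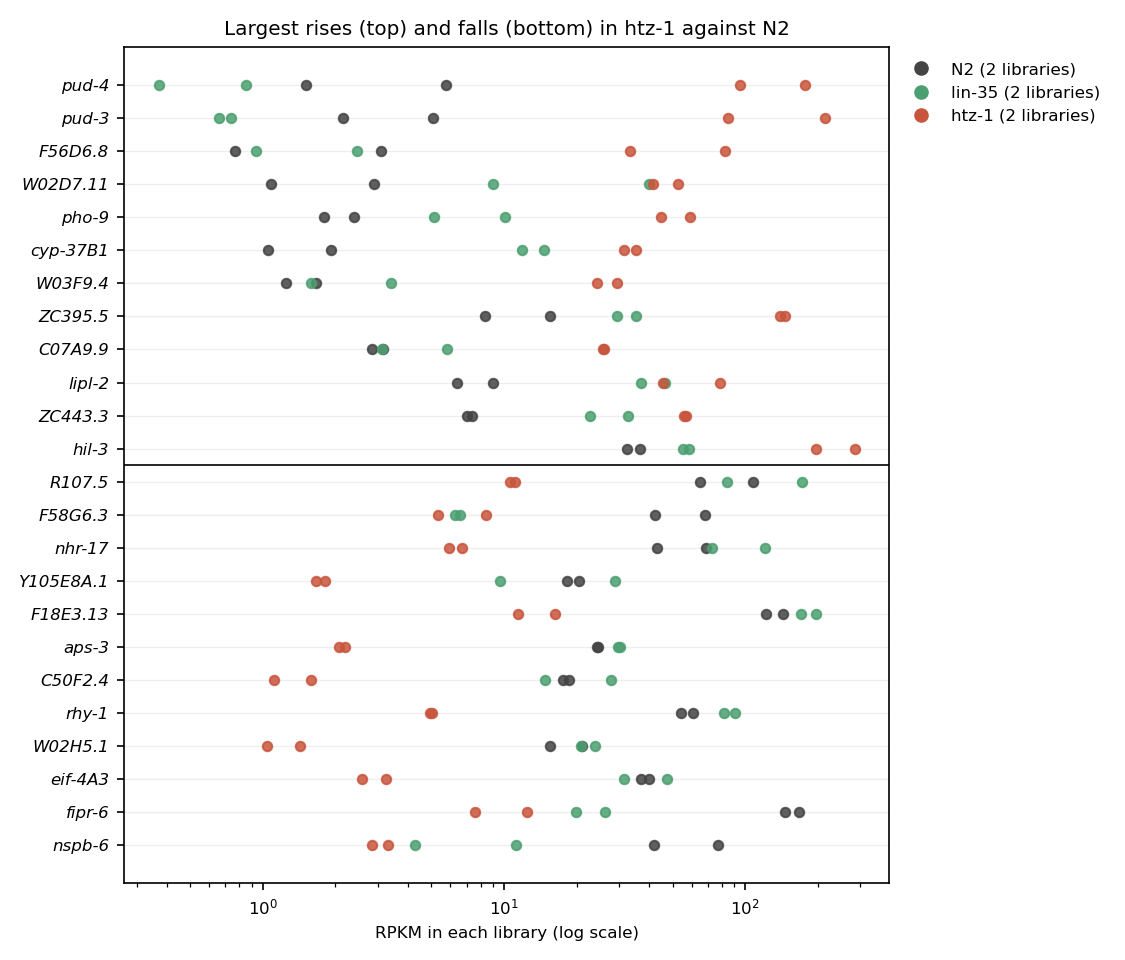
RPKM of the 12 largest rises (top) and the 12 largest falls (bottom) in htz-1 against N2, 1 point per library on a log axis, with N2 in grey, lin-35 in green and htz-1 in red. The rule that chose these genes required both htz-1 points to lie beyond both N2 points. For rhy-1, at 4.94 and 5.04 RPKM in htz-1, the lin-35 points lie above those of N2.

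Mitochondrial genes of protein synthesis and import were lower as a group. The ribosome of the mitochondrion, which translates the few proteins encoded in mitochondrial DNA, is built from nuclear-encoded proteins, and 54 of 69 tested members (78.3%, lowest 32 without N2 replicate 1, 28 held) were lower in htz-1 while none was higher. The list's median log2 fold change was -0.57, against -0.00464 for all tested genes, and it ran from -0.57 to -0.56 when a library was left out. The fall was of moderate size and spread over both subunits. In the small subunit mrps-10 was at 20.8 and 18.6 RPKM in N2 against 10 and 10.2 in htz-1 (log2 fold change -0.93 ± 0.14 SE, adjusted p = 0.00353). mrps-9 was at 46.5 and 44.3 RPKM in N2 against 27.2 and 21.4 in htz-1. mrps-23 was at 43.9 and 45.1 RPKM in N2 against 27.02 and 21.3 in htz-1. In the large subunit mrpl-36 went from 58.9 and 45.97 to 27.1 and 27.4 RPKM, mrpl-39 from 53.7 and 54.5 to 32.3 and 25.9 and mrpl-20 from 35.04 and 37.1 to 19.6 and 19.6. None of these ranges overlapped. Summed over its 69 genes in the table, the list was at 3806 and 3793 RPKM in N2 against 2745 and 2691 in htz-1. In lin-35 the sums were 3229 and 2911 RPKM.

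The mitochondrial unfolded protein response list, which holds chaperones, proteases and subunits of the import channels, was lower in 13 of 16 tested members (81.2%, lowest 9 without N2 replicate 1, 9 held), with a median log2 fold change of -0.58. The chaperone genes hsp-60 and hsp-6 headed it, at 261 and 235 RPKM in N2 against 110.3 and 105.3 in htz-1 for hsp-60 (2.304-fold apart on the RPKM + 0.5 scale, adjusted p = 0.000368) and 466 and 426 RPKM in N2 against 209 and 198 in htz-1 for hsp-6 (log2 fold change -1.13 ± 0.08 SE, adjusted p = 0.000396). Both were also low in lin-35, at 111 and 113 RPKM for hsp-60 and 259.8 and 266 RPKM for hsp-6, and were not called between the mutants (adjusted p = 0.32 and 0.104). Subunits of the membrane channels followed: timm-17B.1 of the inner membrane was at 196 and 182.2 RPKM in N2 against 101 and 90.2 in htz-1. Its partner timm-23 was at 204 and 202 RPKM in N2 against 140.3 and 126 in htz-1. tomm-40 of the outer membrane was at 132 and 136 RPKM in N2 against 87.8 and 79.8 in htz-1. The J-domain partner dnj-10 went from 35.5 and 34.1 to 20.7 and 20.8 RPKM, and no member was called higher. The mitochondrial elongation factors of the translation list moved the same way, tufm-2 (an EF-Tu) at 79.4 and 74.1 RPKM in N2 against 43.5 and 40.05 in htz-1 and tsfm-1 (an EF-Ts) at 86.7 and 73.2 RPKM in N2 against 47.6 and 44.5 in htz-1.

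The respiratory chain list had a smaller share of falls, and the share of its falls that held under every omission was below that of all genes. 24 of 68 tested members (35.3%, lowest 2 without N2 replicate 1, 2 held) were lower and 2 were higher, with a median of -0.18, which was -0.09 under quantile normalization. nuo-5, a subunit of complex I, was at 125 and 126 RPKM in N2 against 68.6 and 77.5 in htz-1 (log2 fold change -0.78 ± 0.12 SE, adjusted p = 0.00427). mai-1, an inhibitor of the ATP synthase, was at 39.3 and 40.7 RPKM in N2 against 17.8 and 13.4 in htz-1 (log2 fold change -1.35 ± 0.19 SE, adjusted p = 0.00306). The list of citric acid and glyoxylate cycle genes had no common direction, with 5 of 27 members higher (18.5%), 5 lower (18.5%) and a median of -0.04. It was not split by the compartment of the enzymes. An isocitrate dehydrogenase gene of this list, idh-2, rose from 29.5 and 24.9 to 50.5 and 49.3 RPKM. A malate dehydrogenase gene of the list, mdh-1, fell from 465 and 471 to 311 and 292 RPKM. Subunits of the same enzyme, succinyl-CoA synthetase, split: sucl-2 was at 53.6 and 59.2 RPKM in N2 against 90.9 and 104.9 in htz-1. sucg-1 was at 60.5 and 57.9 RPKM in N2 against 36.6 and 35.99 in htz-1.

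Lists of protein synthesis outside the mitochondrial ribosome differed in their counts. Of 73 cytosolic ribosomal protein genes 5 were higher and 2 lower, both below the shares of all genes, none of these calls held under every omission, and the median was 0.01. In the list of initiation and elongation factors, in which cytosolic and mitochondrial factors were counted together, 20 of 44 tested members (45.5%, lowest 6 without N2 replicate 1, 6 held) were lower and none was higher (median -0.25). Beside eif-4A3, eif-2alpha, a subunit of the factor that brings the first tRNA, was at 152 and 146 RPKM in N2 against 99.1 and 107 in htz-1 and the eIF3 subunit gene eif-3.L at 105.4 and 103 RPKM in N2 against 77.5 and 70.6 in htz-1. clu-1, whose relatives set the distribution of mitochondria, was at 101 and 94.0 RPKM in N2 against 50.5 and 50.9 in htz-1. Ribosome assembly genes were lower in 13 of 34 tested members (38.2%, lowest 4 without N2 replicate 1, 4 held) with 1 higher: fib-1, the nucleolar methyltransferase fibrillarin, went from 685 and 701 to 453 and 500.1 RPKM, garr-1, a protein of the particles that modify ribosomal RNA, from 152 and 154 to 74.3 and 79.5, and nol-16 from 65.8 and 64.4 to 40.9 and 39. Among splicing and exon junction genes, 13 of 78 were lower and 3 higher, close to or under the shares of all genes, but the branch point factor sfa-1 was at 48.8 and 48.2 RPKM in N2 against 17.9 and 17.2 in htz-1 (log2 fold change -1.45 ± 0.08 SE, adjusted p = 0.000274).

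About as many of the cytosolic chaperone genes were called lower as were not called. 14 of 27 tested members (51.9%, lowest 8 without N2 replicate 1, 8 held) of the cytosolic heat shock and J-domain list were lower and none was higher, with a median of -0.39. hsp-110, a nucleotide exchange factor for Hsp70, was at 274 and 241 RPKM in N2 against 62.7 and 60.1 in htz-1 (log2 fold change -2.06 ± 0.09 SE, adjusted p = 0.000155). Its partner in the disaggregation machinery, the J-domain gene dnj-13, was at 253 and 235 RPKM in N2 against 78.4 and 47.5 in htz-1 (3.995-fold apart on the RPKM + 0.5 scale, adjusted p = 0.00103). Neither was low in lin-35, where hsp-110 was at 364 and 320.2 RPKM and dnj-13 at 307 and 255 RPKM. The constitutive Hsp70 gene hsp-1 was at 1453 and 1267 RPKM in N2 against 789 and 695 in htz-1. The Hsp70-Hsp90 adaptor gene sti-1 was at 153 and 135 RPKM in N2 against 91.9 and 85.3 in htz-1. hsp-17, a small heat shock protein gene, went from 102 and 71.8 to 33.1 and 31.7 RPKM. In the endoplasmic reticulum list 4 of 22 genes were higher (18.2%) and 2 lower (9.09%), beside 15.2% and 16.5% of all genes, and no call held under every omission.

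Of the proteasome subunit genes 15 of 32 tested members (46.9%, lowest 2 without N2 replicate 2, 2 held) were higher and none was lower, and all tested members lay above 0, with log2 fold changes from 0.04 to 0.75 and a median of 0.30. Most of these calls did not hold, and without N2 replicate 2 the share called was below that of all genes. The ubiquitin receptor gene rpn-10 was at 73.4 and 67.4 RPKM in N2 against 106 and 116 in htz-1 (log2 fold change 0.65 ± 0.09 SE, adjusted p = 0.003). The ATPase gene rpt-2 was at 100.1 and 98.7 RPKM in N2 against 141 and 148 in htz-1 (log2 fold change 0.53 ± 0.08 SE, adjusted p = 0.00387). The autophagy and lysosome list was higher in 12 of 29 tested members (41.4%, lowest 5 without N2 replicate 1, 5 held) and lower in 3. Here genes for several steps of autophagosome formation rose: atg-18, which binds the growing membrane, was at 26.4 and 28.5 RPKM in N2 against 82.1 and 80.3 in htz-1 (log2 fold change 1.54 ± 0.10 SE, adjusted p = 0.000301). The conjugating enzyme gene atg-3 was at 21.6 and 20.3 RPKM in N2 against 44.8 and 43.1 in htz-1. The activating enzyme gene atg-7 was at 17.1 and 16.7 RPKM in N2 against 28.2 and 26.5 in htz-1. None of the ranges overlapped, and the membrane protein gene epg-4 was at 8.10 and 7.83 RPKM in N2 against 16.7 and 16.3 in htz-1. hlh-30, the TFEB-type factor that activates such genes, moved the other way, from 33.3 and 31.8 to 16.4 and 19.3 RPKM (log2 fold change -0.86 ± 0.12 SE, adjusted p = 0.00285).

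**Figure D2:**
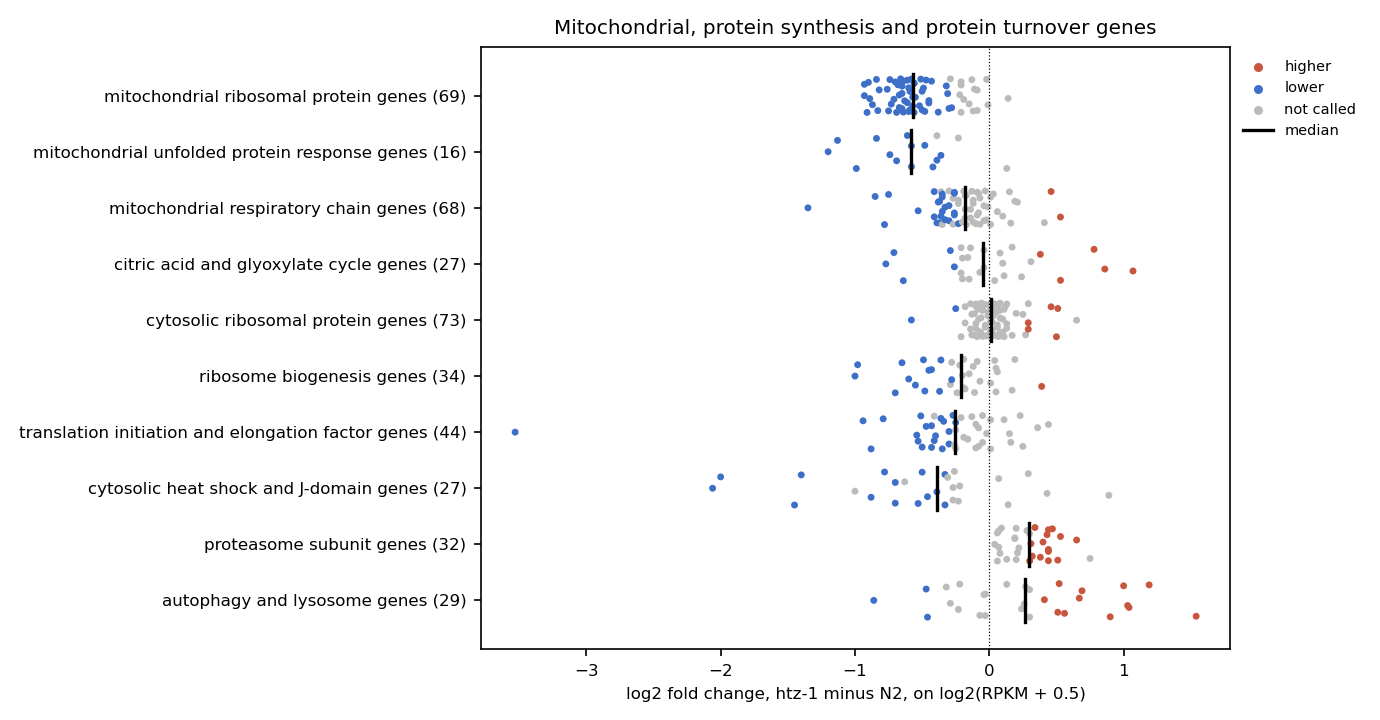
log2 fold change of htz-1 minus N2 for each tested member of 10 lists (number tested in parentheses), coloured by the call of the test, with the list's median as a bar. The mitochondrial ribosomal proteins lie around a median of -0.57 and the proteasome subunits around 0.30, while cytosolic ribosomal proteins cluster at 0.01.

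Sulfur and hypoxia genes gave some of the steepest falls. In the list of genes linked to HIF-1 and hydrogen sulfide, 8 of 16 tested members (50%, lowest 5 without htz-1 replicate 2, 5 held) were lower and 2 higher (median -0.49). Besides rhy-1, F22B5.4, a gene that HIF-1 is known to activate, was at 47.7 and 58.7 RPKM in N2 against 9.61 and 7.01 in htz-1 (log2 fold change -2.63 ± 0.23 SE, adjusted p = 0.000662). cbs-1, a cystathionine beta-synthase gene that joins homocysteine and serine, was at 39.5 and 43.4 RPKM in N2 against 8.11 and 6.39 in htz-1 (log2 fold change -2.45 ± 0.13 SE, adjusted p = 0.000244). sqrd-1, which oxidizes hydrogen sulfide in the mitochondrion, was at 68.6 and 67.97 RPKM in N2 against 25.03 and 25.4 in htz-1 (log2 fold change -1.43 ± 0.16 SE, adjusted p = 0.00131). cysl-1, a cysteine synthase relative that acts on the HIF-1 pathway, went from 89.5 and 99.5 to 54.3 and 55.2 RPKM. All 5 were lower than in lin-35 as well, with adjusted p-values from 2.75e-05 to 0.02.

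Around cbs-1 the methionine cycle and one-carbon list was lower in 10 of 31 tested members (32.3%, lowest 4 without N2 replicate 1, 4 held) and higher in 4. The list also counted propionate genes. ahcy-1, which clears the S-adenosylhomocysteine left by methylation reactions and was the most abundant mRNA named here, was at 3435 and 2797 RPKM in N2 against 1454 and 1573 in htz-1 (log2 fold change -1.04 ± 0.14 SE, adjusted p = 0.00231). gldc-1 of the glycine cleavage system went from 96.7 and 92.4 to 29.6 and 31.9 RPKM, and the S-adenosylmethionine synthetase gene sams-4 rose from 37.6 and 35.2 to 58.8 and 75.4 RPKM. Amino acid breakdown had 11 of 26 tested members (42.3%, lowest 7 without N2 replicate 1, 7 held) lower and 1 higher, among them the phenylalanine hydroxylase gene pah-1, at 83.1 and 81.9 RPKM in N2 against 31.8 and 28.3 in htz-1. The kynurenine pathway gene kynu-1 was at 74.6 and 69.97 RPKM in N2 against 39.7 and 36.1 in htz-1. kmo-1 of the same pathway was at 28.6 and 26.5 RPKM in N2 against 17.9 and 15.7 in htz-1. The glutamine synthetase gene gln-1, an enzyme of synthesis that the list also counted, was at 23.5 and 26.1 RPKM in N2 against 11.7 and 10.96 in htz-1. For ahcy-1, kynu-1, kmo-1 and gln-1 no difference from lin-35 was called (adjusted p = 0.895, 0.889, 0.492 and 0.0541).

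Lists of carbohydrate and lipid genes differed in direction. 11 of 19 tested members (57.9%, lowest 4 without N2 replicate 1, 4 held) of the glycolysis and gluconeogenesis list fell and 1 rose (median -0.34, and -0.21 under quantile normalization): pck-1, the phosphoenolpyruvate carboxykinase that starts glucose synthesis, was at 258 and 296 RPKM in N2 against 118 and 121.5 in htz-1 (log2 fold change -1.21 ± 0.11 SE, adjusted p = 0.000901). The lactate dehydrogenase gene ldh-1 was at 239 and 230.7 RPKM in N2 against 109 and 109 in htz-1 (log2 fold change -1.11 ± 0.07 SE, adjusted p = 0.000358). The aldolase gene aldo-1 fell less, from 405 and 415 to 304 and 305 RPKM. Of 13 tested trehalose and glycogen genes 4 were higher (30.8%) and 2 lower (15.4%), with a median of 0.22. The trehalase gene tre-2 rose from 13.1 and 11.47 to 32.1 and 48.4 RPKM, and aagr-4, an acid alpha-glucosidase gene, from 43.1 and 37.8 to 102.8 and 80.8 RPKM (log2 fold change 1.16 ± 0.13 SE, adjusted p = 0.00133). The glycogenin gene gyg-1, which primes glycogen, fell from 89.2 and 95.8 to 52.3 and 56.6 RPKM. Acyl-CoA synthetase genes gave 3 higher and 3 lower of 14 (21.4% each, beside 15.2% and 16.5% of all genes). Peroxisomal genes were lower in 12 of 28 tested members (42.9%, lowest 9 without N2 replicate 1, 8 held) and higher in 2. These fell along the chain-shortening pathway that also makes the ascaroside pheromones: the acyl-CoA oxidase gene acox-1.1 was at 67.2 and 57.4 RPKM in N2 against 34.9 and 27.9 in htz-1. The hydratase gene maoc-1 was at 234 and 205 RPKM in N2 against 128 and 113.9 in htz-1. The dehydrogenase gene dhs-28 was at 494 and 441 RPKM in N2 against 267 and 257 in htz-1. maoc-1 and dhs-28 were lower still in lin-35, at 68.6 and 59.9 and 219 and 212 RPKM, and both were called higher in htz-1 than there (adjusted p = 0.000466 and 0.00671).

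Genes for lipid carriers and stores moved both ways. Of 30 tested genes of the lipase and lipid droplet list 11 were lower (36.7%, 5 held) and 6 higher (20%, 4 held), beside 16.5% and 15.2% of all genes. dgat-2, which makes triglyceride, was at 24.3 and 24.4 RPKM in N2 against 9.90 and 10.7 in htz-1 (log2 fold change -1.22 ± 0.17 SE, adjusted p = 0.00267). abhd-5.1, a relative of the human lipase co-activator, was at 3.49 and 4.33 RPKM in N2 against 10.7 and 9.34 in htz-1. Among 9 fatty acid binding protein genes, lbp-3 fell from 75.96 and 74.6 to 13.9 and 20.7 RPKM (log2 fold change -2.13 ± 0.19 SE, adjusted p = 0.000668) and lbp-6 from 649.8 and 692 to 377 and 446, whereas far-6 rose from 43.3 and 43.6 to 99.99 and 103 RPKM and far-2 from 993 and 1007 to 1393 and 1379.6. The fatty acid elongase gene elo-1, needed for long polyunsaturated fatty acids, was at 296 and 291 RPKM in N2 against 150.2 and 111 in htz-1 (log2 fold change -1.19 ± 0.14 SE, adjusted p = 0.00176).

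**Figure D3:**
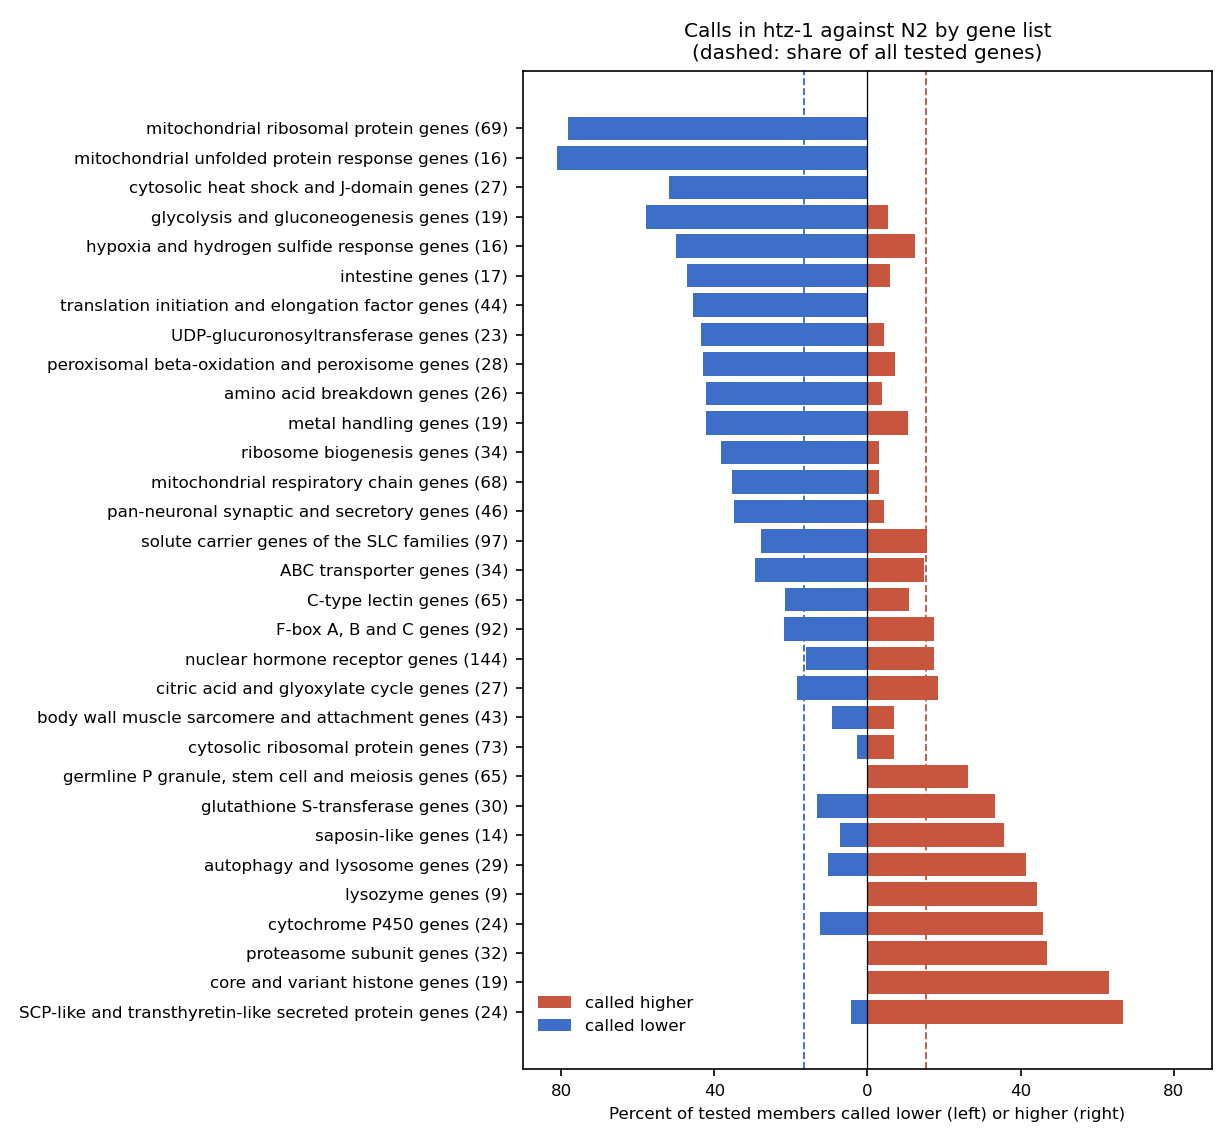
Share of the tested members of 31 gene lists (number tested in parentheses) that were called higher (red, right) or lower (blue, left) in htz-1 against N2, with dashed lines at the shares of all tested genes, 15.2% and 16.5%. The longest bars are those of the mitochondrial ribosomal proteins, 78.3% lower, and of the mitochondrial chaperone and import genes, 81.2% lower, and on the other side those of the SCP-like and transthyretin-like genes, 66.7% higher.

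The families of detoxification enzymes leaned in different directions. Cytochrome P450 genes, whose products oxidize foreign compounds, fatty acids and sterols, were higher in 11 of 24 tested members (45.8%, lowest 4 without N2 replicate 1, 4 held) and lower in 3. Next to cyp-37B1, cyp-34A9 was at 1.54 and 2.47 RPKM in N2 against 18.3 and 12.2 in htz-1 (log2 fold change 2.65 ± 0.25 SE, adjusted p = 0.000906). cyp-33C7 was at 4.81 and 3.91 RPKM in N2 against 20.2 and 11.95 in htz-1 (log2 fold change 1.73 ± 0.23 SE, adjusted p = 0.00234). The named fall, cyp-36A1 was at 7.36 and 6.30 RPKM in N2 against 1.63 and 1.45 in htz-1 (log2 fold change -1.86 ± 0.19 SE, adjusted p = 0.00107). The UDP-glucuronosyltransferases, which attach sugars to the oxidized products, went the other way, with 10 of 23 tested members (43.5%, lowest 9 without N2 replicate 1, 9 held) lower, 1 higher and a median of -0.90. ugt-21 was at 26.4 and 20.9 RPKM in N2 against 5.39 and 5.46 in htz-1 (log2 fold change -2.03 ± 0.14 SE, adjusted p = 0.000368). ugt-19 was at 14.6 and 12.6 RPKM in N2 against 2.84 and 3.11 in htz-1 (log2 fold change -2.03 ± 0.14 SE, adjusted p = 0.00044). ugt-62, the most abundant of the named ones, was at 79.2 and 65.1 RPKM in N2 against 20.9 and 26.5 in htz-1 (log2 fold change -1.60 ± 0.16 SE, adjusted p = 0.00103). ugt-64, ugt-16 and ugt-61 fell by 1.78, 1.63 and 1.15 on the log2 scale. The log2 fold changes of the list ran from -2.03 to 3.96, so its largest change was a rise, in a gene not named here. ugt-62 was as low in lin-35, at 21.9 and 18.1 RPKM, and ugt-21 was not, at 19.5 and 16.9 RPKM (log2 difference -1.49 ± 0.14 SE, adjusted p = 0.000504).

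Glutathione S-transferase genes were higher in 10 of 30 tested members (33.3%, lowest 6 without N2 replicate 2, 5 held) and lower in 4. gst-4, a well-known target of the oxidative stress factor SKN-1, was at 20.2 and 24.7 RPKM in N2 against 87.4 and 109.7 in htz-1 (4.28-fold apart on the RPKM + 0.5 scale, adjusted p = 0.000472), and in lin-35 it was at 15.4 and 15.5 RPKM (log2 difference 2.79 ± 0.16 SE, adjusted p = 9.51e-05). gst-35 was at 3.65 and 3.12 RPKM in N2 against 13.98 and 17.1 in htz-1. gst-10 was at 118.6 and 125 RPKM in N2 against 248 and 282 in htz-1. gst-13 was at 33.4 and 37.1 RPKM in N2 against 66.8 and 75.9 in htz-1. All 3 were higher in both htz-1 libraries than in either N2 library. The list of oxidative stress genes had 5 of 26 higher, 3 lower and a median of -0.00286, and the rises that held under every omission were the transferases gst-4, gst-7 and gst-10. trx-2, the thioredoxin of mitochondria, was its named fall, from 52.8 and 49.6 to 32.6 and 22.5 RPKM.

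**Figure D4:**
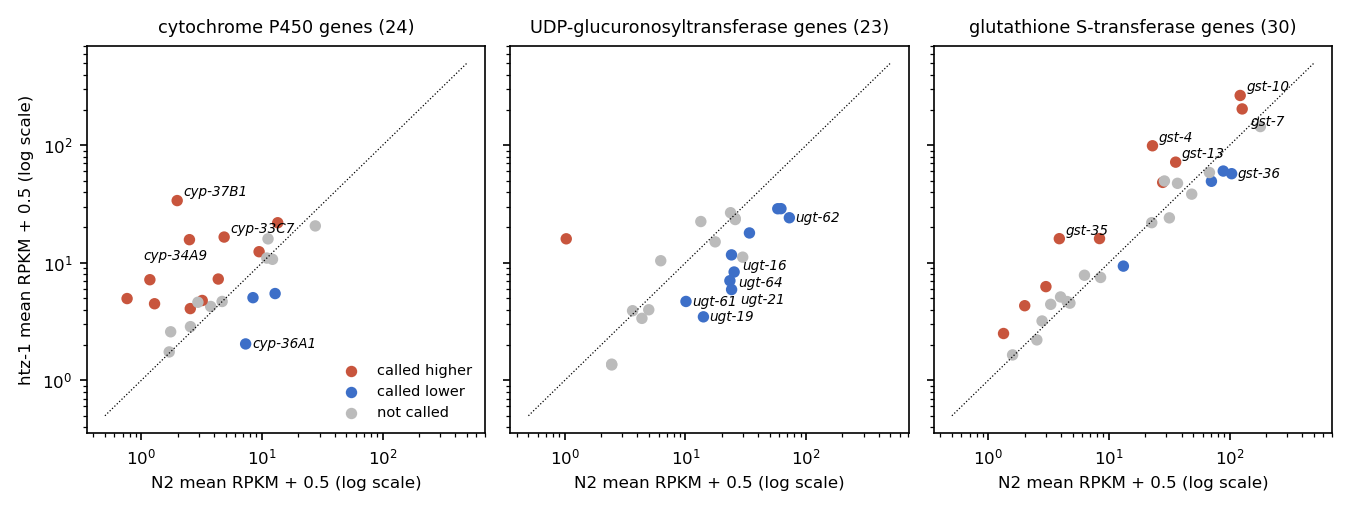
Mean RPKM + 0.5 of the 2 htz-1 libraries against that of the 2 N2 libraries for the tested cytochrome P450, UDP-glucuronosyltransferase and glutathione S-transferase genes, on log axes, coloured by the call of the test. Points above the dotted line of equality are higher in htz-1, as for cyp-37B1, and the called UDP-glucuronosyltransferases lie below it, apart from 1.

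Transporters of the gut and other tissues were lower somewhat more often than all genes. ABC transporter genes were lower in 10 of 34 tested members (29.4%, lowest 5 without N2 replicate 1, 5 held) and higher in 5, and solute carrier and related transporter genes in 27 of 97 tested members (27.8%, lowest 11 without N2 replicate 1, 11 held) and 15. pmp-1, a peroxisomal ABC transporter, was at 37.98 and 33.9 RPKM in N2 against 18.8 and 15.02 in htz-1 (log2 fold change -1.08 ± 0.13 SE, adjusted p = 0.00193), and pgp-2, a P-glycoprotein of the intestine's lysosome-related gut granules, rose from 12.2 and 10.9 to 34.9 and 35.9 RPKM (log2 fold change 1.57 ± 0.12 SE, adjusted p = 0.000483). Several monocarboxylate transporter genes fell: mct-1 was at 39.9 and 49.1 RPKM in N2 against 14.3 and 15.02 in htz-1. mct-2 was at 36.7 and 45.4 RPKM in N2 against 15.6 and 14.1 in htz-1. mct-6 was at 95.4 and 92.4 RPKM in N2 against 44.5 and 33.2 in htz-1. In each case both htz-1 libraries were below both N2 libraries. nac-3, a sodium-coupled carrier of dicarboxylates, was at 27.1 and 28.5 RPKM in N2 against 7.69 and 5.95 in htz-1. ent-4, a nucleoside transporter gene, was at 25.6 and 18.7 RPKM in N2 against 6.64 and 3 in htz-1.

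Genes that handle metals were lower more often than higher. chca-1, a copper importer, was at 37.1 and 26.95 RPKM in N2 against 4.53 and 5.52 in htz-1 (log2 fold change -2.56 ± 0.19 SE, adjusted p = 0.000453), and was lower again in lin-35, at 3.37 and 3.56 RPKM (log2 difference 0.63 ± 0.19 SE, adjusted p = 0.043). cdr-4, a cadmium-responsive gene, was at 65.4 and 65.8 RPKM in N2 against 15.6 and 17.02 in htz-1 (log2 fold change -1.98 ± 0.11 SE, adjusted p = 0.000244). hrg-7, a haem-responsive gene, was at 79.2 and 69.6 RPKM in N2 against 46.4 and 39.04 in htz-1 (log2 fold change -0.80 ± 0.13 SE, adjusted p = 0.00472). cdf-2, which loads zinc into gut granules, rose from 9.09 and 9.28 to 19.1 and 25.97 RPKM (log2 fold change 1.23 ± 0.19 SE, adjusted p = 0.00463), and zipt-2.1, of the zinc importer family and named from the solute carrier list, from 16.09 and 14.7 to 48.8 and 55.9 RPKM (log2 fold change 1.72 ± 0.14 SE, adjusted p = 0.000587). The metal list as a whole had 8 of 19 tested members (42.1%, lowest 3 without N2 replicate 1, 3 held) lower and 2 higher.

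Genes of secreted proteins of the SCP and transthyretin-like families, most of them without a known role, were higher in 16 of 24 tested members (66.7%, lowest 7 without N2 replicate 1, 6 held) and lower in 1, with a median of 0.61. scl-2 was at 72.2 and 71.9 RPKM in N2 against 364 and 305 in htz-1 (log2 fold change 2.19 ± 0.10 SE, adjusted p = 0.000175) and higher again in lin-35, at 940.2 and 794 RPKM. The transthyretin-like gene ttr-49 was at 13.4 and 16.196 RPKM in N2 against 37.3 and 51.9 in htz-1. ttr-45 was at 59.9 and 71.2 RPKM in N2 against 126 and 145 in htz-1. ttr-41 was at 139.7 and 169 RPKM in N2 against 272 and 345 in htz-1. These 3 had separate N2 and htz-1 ranges and were called higher than in lin-35 too (adjusted p = 0.00295, 0.00247 and 0.00839). For ttr-35, at 26.4 and 30.1 RPKM in N2 against 52.3 and 63.4 in htz-1, that p was 0.0259.

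Defence genes did not move as a block. Lysozyme genes were higher in 4 of 9 tested members (44.4%, lowest 3 without N2 replicate 2, 2 held) and lower in none, among them lys-8 at 202 and 175 RPKM in N2 against 332 and 350.2 in htz-1 (log2 fold change 0.85 ± 0.15 SE, adjusted p = 0.0062). Saposin-like genes, which encode small membrane-permeabilizing proteins, were higher in 5 of 14 tested members (35.7%, lowest 4 without N2 replicate 1, 4 held) and lower in 1: spp-8 was at 55.7 and 54.02 RPKM in N2 against 155 and 128 in htz-1 (log2 fold change 1.35 ± 0.10 SE, adjusted p = 0.000472). spp-15 was at 23.9 and 20.6 RPKM in N2 against 50.8 and 61.2 in htz-1. spp-2 was at 51.7 and 75.7 RPKM in N2 against 167 and 144 in htz-1. The last of these varied most between the N2 libraries, without overlap, and spp-22 was at 8.30 and 10.6 RPKM in N2 against 21.6 and 20.3 in htz-1. C-type lectin genes were lower in 14 of 65 tested members (21.5%, lowest 4 without N2 replicate 1, 4 held) and higher in 7, with a median of -0.05, and the shares lower and held were near those of all genes. clec-41 was at 28.8 and 24.5 RPKM in N2 against 4.92 and 4.62 in htz-1 (log2 fold change -2.37 ± 0.13 SE, adjusted p = 0.00026). clec-72 was at 85.95 and 62.5 RPKM in N2 against 19.9 and 14.4 in htz-1, while clec-145 rose from 1.51 and 2.09 to 8.55 and 8.92 RPKM. Of the 202 lectin genes in the table only 65 reached the filter. Of 14 tested antimicrobial peptide genes of the fip, cnc and abf families 3 were lower (21.4%), fipr-6 among them, and 1 was higher (7.14%), with a median of 0.15. fip-5 was at 76.4 and 94.1 RPKM in N2 against 34.3 and 21.3 in htz-1. fipr-13 was at 9.41 and 9.36 RPKM in N2 against 2.66 and 0.945 in htz-1. Both were low in lin-35 as well, at 23.9 and 22.6 RPKM for fip-5 and 1.205 and 1.70 RPKM for fipr-13. Genes of the intracellular pathogen response gave 6 higher (17.6%) and 7 lower (20.6%) of 34, near the shares of all genes. Summed over the 36 genes in the table they were at 189 and 169.8 RPKM in N2 against 136 and 143 in htz-1.

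F-box genes of the fbxa, fbxb and fbxc families encode expanded sets of substrate adaptors for ubiquitin ligases. Of 92 tested, 20 were lower (21.7%, 8 held) and 16 higher (17.4%, 6 held), beside 16.5% and 15.2% of all genes. The neighbouring genes fbxc-1 to fbxc-5 fell to a similar level, fbxc-4 from 10.8 and 12.97 to 4.84 and 4.17 RPKM and fbxc-1 from 10.03 and 12.97 to 5.24 and 5.54 RPKM. Their RPKM in N2 lay so close together that reads from near-identical copies may have been divided among them, and they count as uncertain as separate results. fbxa-21 rose from 2.15 and 2.08 to 7.46 and 8.49 RPKM and fbxa-219 from 3.62 and 2.49 to 10.2 and 8.89.

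Germline genes were called higher in htz-1 more often than lower, but the share whose call held under every omission was near that of all genes. The neuronal and intestinal lists were lower more often than higher. In whole animals fewer cells of a type and less RNA per cell cannot be told apart, so a tissue list measures both. Of the germline list of P granule, stem cell and meiosis genes, 17 of 65 tested members (26.2%, lowest 4 without N2 replicate 1, 4 held) were higher and none was lower, with a median log2 fold change of 0.34 that stayed between 0.29 and 0.47 under the omissions. glp-1, the Notch-type receptor that keeps germline stem cells proliferating, was at 8.99 and 8.17 RPKM in N2 against 15.3 and 14.2 in htz-1 (log2 fold change 0.74 ± 0.11 SE, adjusted p = 0.00352). syp-1 of the synaptonemal complex was at 9.28 and 9.84 RPKM in N2 against 16.16 and 15.8 in htz-1 (log2 fold change 0.70 ± 0.10 SE, adjusted p = 0.00287). The P granule gene pgl-3 was at 9.65 and 10.7 RPKM in N2 against 17.04 and 22 in htz-1. mes-6, of the H3K27 methyltransferase complex, was at 12.95 and 12.2 RPKM in N2 against 21.6 and 19.04 in htz-1. In lin-35 these stood far higher for pgl-3, at 219 and 213 RPKM (log2 difference -3.28 ± 0.14 SE, adjusted p = 4.48e-05), and for syp-1, at 61.8 and 62.3 RPKM (log2 difference -1.76 ± 0.10 SE, adjusted p = 9.51e-05). The P granule genes pgl-1 and glh-1 were not called, with pgl-1 at 53.5 and 57.5 RPKM in N2 against 58.6 and 73.4 in htz-1. glh-1 was at 133 and 147 RPKM in N2 against 146 and 175 in htz-1. Of the other defining germline genes, htp-3 was at 9.03 and 8.71 RPKM in N2 against 14.7 and 17.8 in htz-1 (log2 fold change 0.83 ± 0.25 SE, adjusted p = 0.0408). him-3 was at 6.44 and 7.84 RPKM in N2 against 10.7 and 15.9 in htz-1 (log2 fold change 0.83 ± 0.20 SE, adjusted p = 0.0212). Both were called higher, and neither call held under every omission. Oocyte and sperm genes gave few calls. Of 28 oogenesis genes 3 were higher (10.7%) and 1 lower (3.57%), with a median of 0.34. The yolk receptor gene rme-2 was at 2.32 and 2.85 RPKM in N2 against 2.80 and 3.59 in htz-1 (adjusted p = 0.477). The major sperm protein genes were near 0, at 3.07 and 3.89 RPKM in N2 against 9.65 and 9.06 in htz-1 summed over 29 genes.

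Of the pan-neuronal synaptic and secretory genes 16 of 46 tested members (34.8%, lowest 6 without N2 replicate 1, 6 held) were lower and 2 higher, with a median of -0.23. rimb-1, a scaffold that holds calcium channels at the active zone, was at 12.1 and 9.87 RPKM in N2 against 0.961 and 1.21 in htz-1 (log2 fold change -2.87 ± 0.18 SE, adjusted p = 0.000294), the largest fall of the list. unc-33, which organizes microtubules of axons and dendrites, was at 23.6 and 21.8 RPKM in N2 against 6.43 and 7.89 in htz-1 (log2 fold change -1.61 ± 0.13 SE, adjusted p = 0.000623). The calcium-activated potassium channel gene slo-1 was at 15.3 and 13.7 RPKM in N2 against 6.92 and 7.79 in htz-1. The syntaxin gene unc-64 was at 17.5 and 15.5 RPKM in N2 against 10.4 and 9.03 in htz-1. Of the other defining genes, rgef-1 was lower, at 4.93 and 4.41 RPKM in N2 against 2.64 and 2.87 in htz-1 (log2 fold change -0.68, adjusted p = 0.0208). That call did not hold under every omission. The vesicle protein gene snb-1 (synaptobrevin) was higher (163 and 154 RPKM in N2 against 198 and 195 in htz-1, log2 fold change 0.31, adjusted p = 0.0185), a call lost when any 1 of the N2 or htz-1 libraries was left out. Not called were rab-3, at 24.7 and 24.4 RPKM in N2 against 21.8 and 19.6 in htz-1, and unc-119, at 6.24 and 5.76 RPKM in N2 against 5.92 and 5.22 in htz-1. egl-3, at 63.6 and 62.5 RPKM in N2 against 72.1 and 67.2 in htz-1, was not called either. The GABA transporter gene snf-11 was at 30.99 and 31.5 RPKM in N2 against 20.6 and 16.17 in htz-1. Neuropeptide genes were lower in 11 of 92 and higher in 3, both under the shares of all genes, and nlp-24 was a named fall, from 967 and 1274 RPKM in N2 to 194 and 199.6 in htz-1 and 167 and 248 in lin-35. The insulin-like peptide gene daf-28 was at 20 and 21.9 RPKM in N2 against 7.84 and 7.83 in htz-1 (log2 fold change -1.37 ± 0.13 SE, adjusted p = 0.000909).

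The intestine list was lower in 8 of 17 tested members (47.1%, lowest 3 without N2 replicate 1, 3 held) and higher in 1, with a median of -0.24. The falls were in genes of the brush border and its cytoskeleton and in transport: the intermediate filament gene ifc-1 was at 239.5 and 222 RPKM in N2 against 88.1 and 66.3 in htz-1. ifp-1, of the same family, was at 76.2 and 83.0 RPKM in N2 against 41.1 and 35.3 in htz-1. The libraries of the groups were apart for both. pho-1, a luminal acid phosphatase gene, was at 99.98 and 88.3 RPKM in N2 against 56.6 and 51.7 in htz-1. The microvillar actin gene act-5 was at 769 and 651 RPKM in N2 against 501 and 422 in htz-1 (log2 fold change -0.63 ± 0.11 SE, adjusted p = 0.00709), a call lost without N2 replicate 1. Other defining intestinal genes were not called: the master regulator elt-2 was at 13.9 and 12.2 RPKM in N2 against 17.6 and 19.97 in htz-1 (adjusted p = 0.063). The gut esterase gene ges-1 was at 26.9 and 26.9 RPKM in N2 against 32.6 and 27.3 in htz-1. The proton pump gene vha-6 was at 292 and 268 RPKM in N2 against 264 and 248 in htz-1.

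Body wall muscle gave few calls. Of 43 sarcomere and attachment genes 4 were lower (9.3%) and 3 higher (6.98%), with a median of -0.02. The myosin heavy chain gene unc-54 was at 1175 and 1265 RPKM in N2 against 1032 and 1079 in htz-1, not called. The named falls were the LIM domain gene lim-9, at 48.0 and 44.2 RPKM in N2 against 28.3 and 25.3 in htz-1. The syntrophin gene stn-1 was at 22.4 and 22.5 RPKM in N2 against 12.6 and 14.2 in htz-1. In the basement membrane, the sheet on which muscles and gonad rest, both chains of type IV collagen fell, let-2 from 295 and 309 to 83.4 and 106 RPKM (log2 fold change -1.69 ± 0.14 SE, adjusted p = 0.000666) and emb-9 from 228 and 238 to 107 and 134 RPKM (log2 fold change -0.97 ± 0.14 SE, adjusted p = 0.00298). The list as a whole gave 5 lower (27.8%) and 2 higher (11.1%) of 18 in all. Only 3 genes of the epidermis list were in the table used here. lin-26, which sets epidermal fate, was at 20.5 and 16.8 RPKM in N2 against 49.6 and 39.9 in htz-1 (log2 fold change 1.23 ± 0.16 SE, adjusted p = 0.00238). lin-22 was at 12.9 and 11.41 RPKM in N2 against 6.27 and 4.08 in htz-1 (log2 fold change -1.19 ± 0.20 SE, adjusted p = 0.00534). elt-1 was at 5.49 and 6.49 RPKM in N2 against 5.51 and 3.96 in htz-1, not called. In the pharynx list 2 of 8 were higher (25%) and 1 was lower (12.5%). The rises included the T-box factor gene tbx-2, at 13.8 and 11.53 RPKM in N2 against 24.98 and 20.7 in htz-1 (log2 fold change 0.82 ± 0.13 SE, adjusted p = 0.00522). pha-4 was at 17.2 and 17.9 RPKM in N2 against 21.6 and 18.9 in htz-1, not called.

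**Figure D5:**
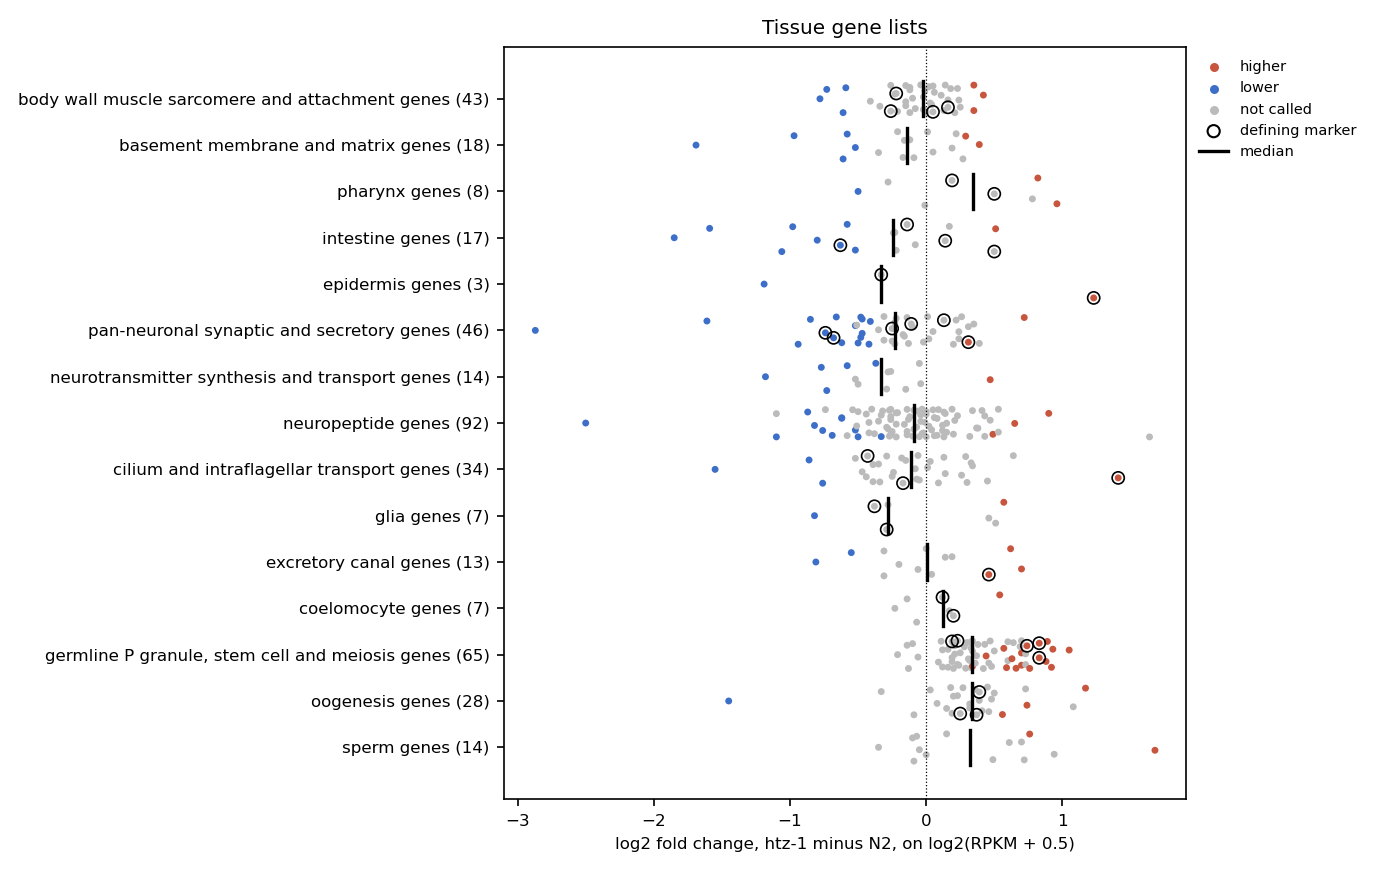
log2 fold change of htz-1 minus N2 for each tested member of 15 tissue lists (number tested in parentheses), coloured by the call of the test, with the list's median as a bar and defining markers circled. The germline list lies to the right, around a median of 0.34, the intestine and pan-neuronal lists lie to the left, at -0.24 and -0.23, and body wall muscle lies at -0.02. The pharynx, oogenesis and sperm lists have medians like that of the germline, at 0.345, 0.339 and 0.322. The epidermis, neurotransmitter and glia lists lie further left than intestine, at -0.331, -0.33 and -0.277.

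Transcription factors and signalling genes changed one by one. Of 144 nuclear hormone receptor genes 25 were higher (8 held) and 23 lower (7 held), near the shares of all genes. nhr-99 was at 1.80 and 2.39 RPKM in N2 against 17.7 and 16.01 in htz-1 (log2 fold change 2.75 ± 0.17 SE, adjusted p = 0.000294). nhr-62, which is known for its part in the response to dietary restriction, was at 10.2 and 8.09 RPKM in N2 against 1.61 and 2.39 in htz-1 (log2 fold change -1.97 ± 0.25 SE, adjusted p = 0.00209). Both had low levels in the group where they were less expressed. daf-12, the receptor for the steroid hormone dafachronic acid, was at 48.7 and 41.97 RPKM in N2 against 25.1 and 17.3 in htz-1 (log2 fold change -1.11 ± 0.17 SE, adjusted p = 0.00437). pop-1, the TCF factor at the end of the Wnt pathway, was at 24.1 and 21.4 RPKM in N2 against 7.02 and 8.59 in htz-1 (log2 fold change -1.50 ± 0.15 SE, adjusted p = 0.00104). The kinase gene akt-1 of the insulin pathway was at 37.5 and 48.0 RPKM in N2 against 115 and 120.1 in htz-1 (log2 fold change 1.45 ± 0.16 SE, adjusted p = 0.0014). In the TGF-beta list 5 of 18 genes were higher (27.8%) and 4 lower (22.2%), beside 15.2% and 16.5% of all genes, with a median of 0.13. Receptors of the dauer branch were among the falls, daf-1 from 17.6 and 18.4 to 10.7 and 9.70 RPKM and daf-4 from 18.96 and 19.2 to 11.82 and 9.52. In the heterochronic list, which times larval development, the related Argonaute genes of the microRNA pathway moved apart: alg-1 was at 27.5 and 25.6 RPKM in N2 against 47.1 and 41.2 in htz-1 (log2 fold change 0.71 ± 0.11 SE, adjusted p = 0.00461). alg-2 was at 25.7 and 24.4 RPKM in N2 against 14.2 and 13.6 in htz-1 (log2 fold change -0.84 ± 0.10 SE, adjusted p = 0.00173). The levels of both genes were similar in N2 and apart in htz-1. lin-41, a target of the let-7 microRNA, was at 62.9 and 61.1 RPKM in N2 against 29.3 and 17.3 in htz-1 (log2 fold change -1.45 ± 0.20 SE, adjusted p = 0.003). osm-11, a secreted Notch co-ligand whose loss is known to bring on the osmotic stress response, was at 584 and 602 RPKM in N2 against 213 and 152 in htz-1 (log2 fold change -1.73 ± 0.21 SE, adjusted p = 0.0018), and of the other 5 tested genes of the osmotic list 1 more was lower and none higher. In lin-35 osm-11 was at 272 and 394 RPKM, also below both N2 libraries. The labels give a sucrose step for N2 and lin-35 and not for htz-1, and its part in the osmotic genes was not tested.

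Histone genes were higher as a group. 12 of 19 tested members (63.2%, lowest 6 without N2 replicate 1, 6 held) were higher and none was lower, with a median of 0.60. The highest log2 fold change of the list was 2.87, above that of hil-3, in a gene not named here. Linker histone genes were among the rises: beside hil-3, his-24 was at 88.4 and 74.9 RPKM in N2 against 279 and 430.3 in htz-1 (log2 fold change 2.08 ± 0.20 SE, adjusted p = 0.000939). hil-2 was at 52.7 and 52.98 RPKM in N2 against 143 and 165 in htz-1 (log2 fold change 1.52 ± 0.12 SE, adjusted p = 0.000623). his-68, of the core histones, was at 2.97 and 3.60 RPKM in N2 against 9.92 and 12.6 in htz-1. his-41 was at 130.4 and 123 RPKM in N2 against 189.8 and 179.7 in htz-1. Core histone genes are near-identical copies whose mRNAs mostly lack a poly(A) tail, so their values here are uncertain as single genes. Among the genes that deposit H2A.Z or act with it, few were called: of 15 genes of the SWR1-type and NuA4 complexes and their partners, htz-1 among them, ssl-1, the ATPase of the SWR1-type complex, was lower and mrg-1 was higher, neither under every omission, with a median of -0.00264.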

How the data were processed

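RNA-seq of whole L3 larvae was deposited as RPKM per gene for 6 libraries. The authors made these RPKM values from reads aligned with BWA to ce10 and counted per gene with HTSeq, and left out oscillating genes. Their fold changes, p-values and adjusted p-values from DESeq2, in columns of the same table, were not used. Gene symbols came from RefSeq, build WBcel235 (15397 of 15568 genes matched), for names and neighbours only. Genes with a mean of at least 1 RPKM (9679) were tested with limma 3.58.1 (R 4.3.3) on log2(RPKM + 0.5), with libraries scaled by the median of ratios, two-sided, in 1 fit of all 6 libraries, with Benjamini-Hochberg adjustment and a threshold of 0.05. The fold of a low gene is understated on this scale. For 14547 genes the values came out as whole reads within 0.002 reads, which allowed an alternative with limma-voom on those reads.

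The 77 gene lists and the members named were chosen with earlier results of these data known. The text names the 12 largest rises and falls, which also needed separate N2 and htz-1 values. From each list it names up to 6 members in the commoner direction and 2 in the other. Both rules took genes called with all libraries and without each in turn, with a mean of at least 1 RPKM in both genotypes. Cell cycle genes and genes the study lists as bound by DREAM in L3 were not named by these rules. Some defining members of a tissue are given as well, whether called or not, but not every defining member is in the text. After the lists were first run, sft-1, sft-4, stip-1, trap-1 and hsr-9 were taken out of them, because their known roles do not belong there, and 2 lists were widened to the whole hsp-16 family. The fit was tested on simulated data.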

Additional observations from a re-analysis of the deposited data

How the results depend on the processing

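Leaving out 1 library moved the number of genes called higher between 577 and 1565 and lower between 577 and 1677. The counts were 577 and 577 without N2 replicate 1, 714 and 749 without N2 replicate 2, and 783 and 877 without htz-1 replicate 2. Such fits have fewer samples by construction, and a lone library is assumed to vary like the other groups. Under the 10 other alternatives (other scalings, pseudocounts, filters, samples, variance models and tools) the counts ran from 1264 to 1651 higher and from 1380 to 1740 lower. Of the 229 genes the rule names, 228 were called. They were chosen to hold without each library, and each one tested also kept its call under the other alternatives (218 were left at a mean of at least 5 RPKM). The htz-1 mRNA was called only without htz-1 replicate 1. The 77 lists kept the side with more calls in 57 to 75 cases with a library left out, and in 68 to 77 otherwise. Replicate numbers did not meet the requirement for pairing the samples of htz-1 against N2, since not every pair of groups correlated above 0.1: the deviations of same-numbered N2 and htz-1 libraries correlated at 0.0992, those of N2 and lin-35 at 0.318 and those of lin-35 and htz-1 at 0.0162. With a replicate block, 1651 genes were higher and 1740 lower. With 2 libraries a group, changes that are small beside the spread are missed, genes under 1 RPKM were not tested, and reads of near-identical or overlapping genes cannot be told apart, since strand-specific counting is not given in the sources used here.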

Other observations

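Some of the genes that held under every omission lay next to each other. Among tested genes in RefSeq order, 76 pairs, 8 runs of 3, 1 run of 4 and 1 run of 5 neighbours were called in the same direction, and no chance level was computed for them. The examples given here were chosen after their values were seen. The run of 4 was F18E3.11, F18E3.12, F18E3.13 and ddo-2, where F18E3.13 was at 122.2 and 143 RPKM in N2 against 11.48 and 16.3 in htz-1 and ddo-2 at 56.1 and 66.5 RPKM in N2 against 22.7 and 29.1 in htz-1. In lin-35 F18E3.13 was at 197 and 171 RPKM. Beside chca-1 and F58G6.3, the next gene F58G6.7 was at 35.9 and 27.7 RPKM in N2 against 10.1 and 7.89 in htz-1, and all 3 were low in lin-35 too, with F58G6.7 at 6.29 and 5.44 RPKM. daf-36, an oxygenase gene for the first step of dafachronic acid synthesis, stood in a run with pyt-1 and fipr-6 and was at 16.9 and 15.2 RPKM in N2 against 4.21 and 2.57 in htz-1 (log2 fold change -2.13 ± 0.24 SE, adjusted p = 0.00147). The run of 5 is that of the fbxc genes, which may share reads.

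Short-chain dehydrogenase genes gave 4 higher (2 held) and 4 lower (4 held) of 19, and mitochondrial fatty acid beta-oxidation genes 5 higher (3 held) and 6 lower (2 held) of 17. Of 17 tested nematode-specific peptide genes 3 were higher and 2 lower, of which 2 held in each direction. Of 18 tested vacuolar ATPase genes 1 was higher and none was lower, and of 31 aminoacyl-tRNA synthetase genes 3 were higher and 7 lower. Of 1125 chemoreceptor genes listed, 27 reached the filter, with 3 higher (11.1%) and 4 lower (14.8%). Cilium genes gave 1 higher (2.94%) and 3 lower (8.82%) of 34, and Hox and homeodomain genes 7 higher (12.1%) and 5 lower (8.62%) of 58. The shares of these last lists, from the chemoreceptors on, were below those of all genes in both directions.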
